A study of Canis lupus familiaris with 30 samples.

Results

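The nuclear genes of the mitochondrial respiratory chain were followed across 30 canine thyroid tumors. Members were chosen by symbol alone, as the subunit names of complex I (NDUFA, NDUFB, NDUFC, NDUFS and NDUFV), complex II (SDHA to SDHD), complex III (UQCR), complex IV (COX4 to COX8) and complex V (ATP5F, ATP5M and ATP5P), with the assembly factors left out. This gave 55 of the 30424 genes in the count table. Complex I had 27 members, complex II 3, complex III 6, complex IV 9 and complex V 9, and NDUFA4L2 was kept apart because its family is counted with complex I by name and with complex IV by position. Of the 30424 genes 15780 carried a symbol, so subunits without one could not be found. No gene carried a symbol starting with NDUFC. SDHD, COX6A1, COX7A2 and NDUFA4 were also absent, as were others such as UQCRH, COX6C, COX7C and ATP5PO. These subunits were not analysed here, so no complex is covered in full.

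The respiratory chain sits in the inner mitochondrial membrane. Complex I takes electrons from NADH and complex II takes them from succinate, complex III passes them to cytochrome c, and complex IV hands them to oxygen. Protons pumped along the way drive complex V, the ATP synthase. The subunits come from both genomes of the cell, since a small core is encoded in mitochondrial DNA and translated on mitochondrial ribosomes, while the genes described here are nuclear and their proteins are imported. In the thyroid, oncocytic tumors are known for their mass of mitochondria, and hormone synthesis draws on hydrogen peroxide and on energy.

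The study sequenced RNA from primary thyroid tumors of pet dogs that had received a diagnosis of thyroid carcinoma, to profile expression and compare clusters of tumors. Total RNA was depleted of ribosomal RNA and sequenced from 1 library per tumor. The sample labels put all 30 libraries in 1 group, thyroid tumor tissue, with no treatment, time, batch or tumor type, so no comparison between tumor types was made. Tumors are called by their library names and are the unit of replication.

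Between 12288945 (TC538) and 45148677 (TC1869) reads per tumor were counted on genes, with a median of 25569678. TC538 stood apart with the smallest library, a size factor of 0.279 against a median of 1.08, and the highest share of reads on mitochondrially encoded mRNA, 6.01% against a median of 2.24%. The thyroid label was checked on 12 thyroid hormone synthesis genes, among them TG and PAX8, and all 12 were counted, with a summed normalized count from 273 in the lowest tumor to 7.27e+06 in the highest. Clustering on 764 variable genes, with the members left out, placed 25 tumors in a larger branch and TC1020, TC1473, TC1601, TC1936 and TC2289 in a smaller branch. The mean level of the 12 thyroid genes, as a difference from their medians, was lowest in TC1088 (-9.36), and the 5 tumors of the smaller branch lay between -8.73 and -2.30. The rest of the larger branch lay above these, so TC1088 stood apart within its branch. The mean level of 5 markers of C cells, the calcitonin cells of the thyroid, separated TC1088 from the smaller branch. It lay between 7.28 and 10.47 in the 5 tumors of the smaller branch, at no more than 4.21 in the larger branch, and at -1.94 in TC1088. Relations between genes were therefore examined within the 25 tumors of the larger branch.

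Levels are log2 of the normalized count plus 1, where the normalized count is the read count divided by the tumor's size factor. They compare tumors within a gene. They do not compare genes with each other, since counts also follow transcript length. The members together held from 0.295% (TC2288) to 0.703% (TC1979) of all counts, with a median of 0.450%. Of the 55 members, 53 had at least 10 counts in at least 5 tumors. The other 2 were COX7B2, listed at 0 in 21 tumors and at no more than 9 counts elsewhere, and ATP5MK, with 1 to 19 counts. A count of 0 allows up to 3 counts, and this limit covers counting error only. The 49 members called broadly expressed below are the 53 without COX4I2, COX6A2, COX7A1 and NDUFA4L2, which are known as isoforms of restricted tissues.

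The members had a smaller median spread between tumors than the whole transcriptome, and a spread nearer to that of genes at similar levels. The SD of the level over 30 tumors had a median of 0.66 over the 53 members (jackknife SE over tumors 0.0618) and ranged from 0.40 to 1.68. Over all 18711 genes that passed the same filter the median was 0.95, and over 3167 other genes with median levels in the middle range of the members it was 0.73. The steadiest members were ATP5PB, a stalk subunit of ATP synthase, with an SD of 0.40, and NDUFA6, an accessory subunit of complex I, with an SD of 0.43. The largest SDs among the broadly expressed members were those of NDUFS7 (1.06) and NDUFB7 (1.04).

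**Figure D1:**
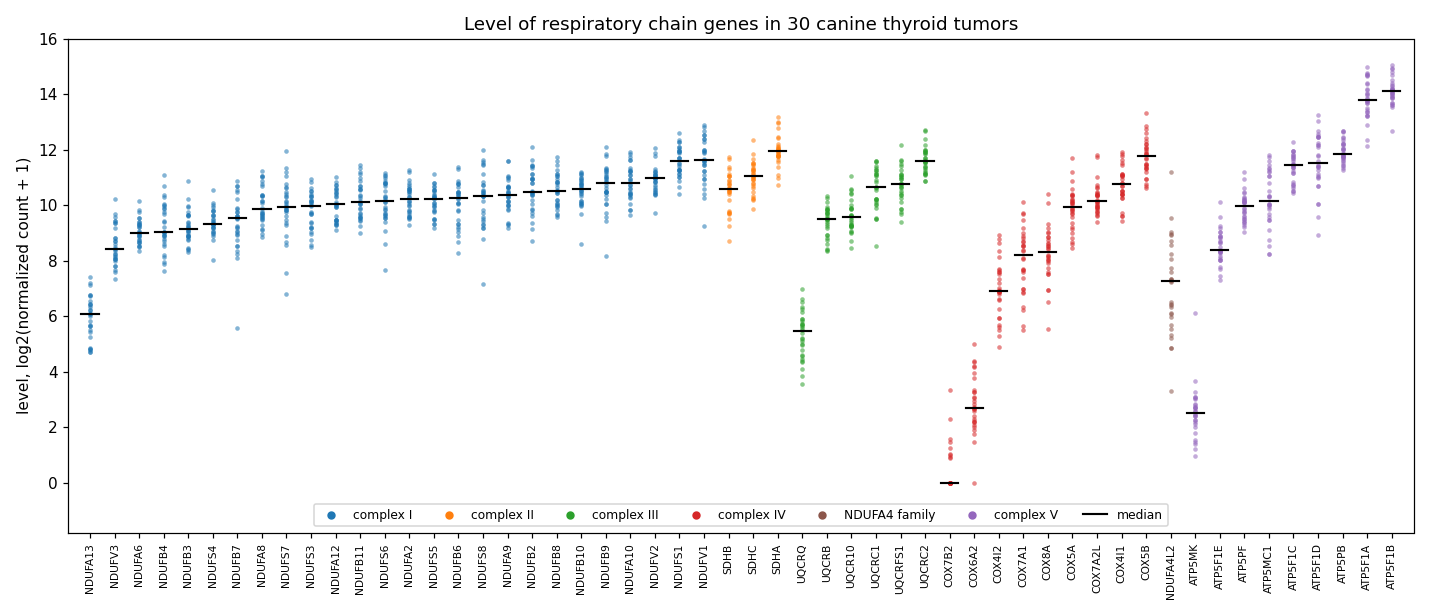
Level of 54 of the 55 members in each tumor, as log2 of the normalized count plus 1 (vertical axis), with genes grouped and colored by complex and ordered by median (horizontal axis). Points are tumors (n = 30) and black bars are medians; COX7B2 has a median of 0, and NDUFA4L2 has the widest spread.

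Complex I, the NADH dehydrogenase, had members at both ends of the spread. NDUFS7 and NDUFS8 are core subunits that carry iron-sulfur clusters on the path to ubiquinone. The normalized count of NDUFS7 was 111 in the lowest tumor (TC538), 188 and 381 in the next (TC1473 and TC1593), 991 at the median, and 2325, 2572 and 4007 in the highest (TC1744, TC22 and TC1869). NDUFS8 ran from 143 in TC538 and 440 in TC1473 through a median of 1298 to 3165 in TC1869 and 4045 in TC67. Both genes thus had TC538 and TC1473 at the bottom, and for NDUFS8 TC538 lay apart from the rest. NDUFB7, an accessory subunit of the membrane arm, had the same low tumor, at 46.6 normalized counts in TC538 against 271 in the next lowest (TC2288) and a median of 738. NDUFV2 and NDUFS4, subunits of the arm that oxidizes NADH, were narrower, with SDs of 0.48 and 0.47. NDUFV2 had its lowest normalized count in TC1020 (841), a median of 2026 and its highest in TC538 (4334). NDUFS4 ran from 263 in TC2011 through 643 to 1489 in TC2289. NDUFS1, the large iron-sulfur subunit of the same arm, ran from 1364 in TC1601 through 3117 to 6206 in TC67.

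Complex II, succinate dehydrogenase, was counted through SDHA, its flavoprotein, SDHB, its iron-sulfur protein, and SDHC, a membrane anchor. SDHA ran from 1711 normalized counts in TC1936, 2018 in TC1473 and 2177 in TC2289 through a median of 3943 to 9321 in TC1979, with an SD of the level of 0.55. SDHB had its lowest value in TC1088 (417), a median of 1555 and its highest in TC538 (3438), with an SD of 0.72. SDHC ran from 940 in TC1473 through 2110 to 5277 in TC538, with an SD of 0.55. The tumors lowest in SDHA were the smaller branch tumors TC1936, TC1473 and TC2289, whereas SDHB and SDHC were highest in the shallowest library.

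In complex III, UQCRC2, a core subunit, had an SD of 0.47 and ran from a level of 10.87 in TC640 through 11.60 to 12.71 in TC67. Its partner UQCRC1 had an SD of 0.75 and ran from 8.52 in TC538 through 10.67 to 11.60 in TC1869. UQCRFS1, the Rieske iron-sulfur protein, ran from 9.38 in TC1473 through 10.76 to 12.16 in TC67. UQCRQ, a small subunit, had the largest SD of the complex (0.85) on low counts, 3 to 121 per tumor. UQCRB and UQCR10, also small subunits, had SDs of 0.55 and 0.59.

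In complex V, ATP5F1A, ATP5F1B and ATP5F1C encode the alpha, beta and gamma subunits of the catalytic head. ATP5F1B ran from a level of 12.69 in TC640 through 14.11 to 15.07 in TC538 (SD 0.48), and ATP5F1C from 10.43 in TC1601 through 11.45 to 12.27 in TC538 (SD 0.50). ATP5F1A was more variable, from 12.13 in TC1473 through 13.80 to 15.00 in TC1979 (SD 0.69). The largest SDs of the complex were those of ATP5MC1, which encodes the c subunit of the proton-driven ring (1.03), and ATP5F1D, the delta subunit of the central stalk (1.02). ATP5F1D had normalized counts of 488 in TC538 and 760 in TC1473, a median of 2954, and 8311 and 9793 in TC2289 and TC1869.

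A pair of libraries held many of the extreme values. TC2289 was the highest tumor for 15 of the 53 members and the lowest for 1. TC538 was the lowest for 15 members, NDUFS7, NDUFS8, NDUFB7, UQCRC1 and ATP5F1D among them, and the highest for 6, which were NDUFA12, NDUFV2, SDHB, SDHC, ATP5F1B and ATP5F1C. TC1088 was the lowest for 9 and the highest for 0. The part of library size in the values of TC538 was not tested.

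The mean level of the 49 broadly expressed members, each taken as a difference from its own median, ordered the tumors from TC1088 (-0.72), TC2288 (-0.67) and TC1593 (-0.66) to TC67 (0.60), TC1869 (0.75) and TC2289 (0.77). In TC1869 and TC2289 the 10 most counted genes held 40.2% and 40.3% of all counts, against a median of 21.8%. The share of all counts on members was 0.471% and 0.486% there, near the median of 0.450%. The part of scaling by size factor in the rank of these 2 tumors was not tested. These are bulk samples, in which fewer cells of a type and less RNA per cell cannot be told apart. Complexes I, III, IV and V followed this order, with a rho of 0.86 to 0.96 with the mean over the 30 tumors. For complex II rho was 0.62. Each complex is itself part of this mean, with 27 of the 49 members from complex I and 3 from complex II. These values are therefore raised by construction and do not rank the complexes. Each member is set against the other members below. In TC538 the complex I mean was the lowest of all tumors (-0.76) and the complex II mean the highest (0.78). In TC2289 the complexes I, III, IV and V lay at 0.80, 1.00, 0.90 and 0.92, and complex II at -0.58. Complex II lay above the mean in TC1593 and TC2288 (-0.17 in each) and below it in TC1473 (-0.98). The complex IV mean ran from -0.98 in TC1593 to 1.03 in TC1869, and the complex V mean from -0.75 in TC1473 to 0.92 in TC2289.

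**Figure D2:**
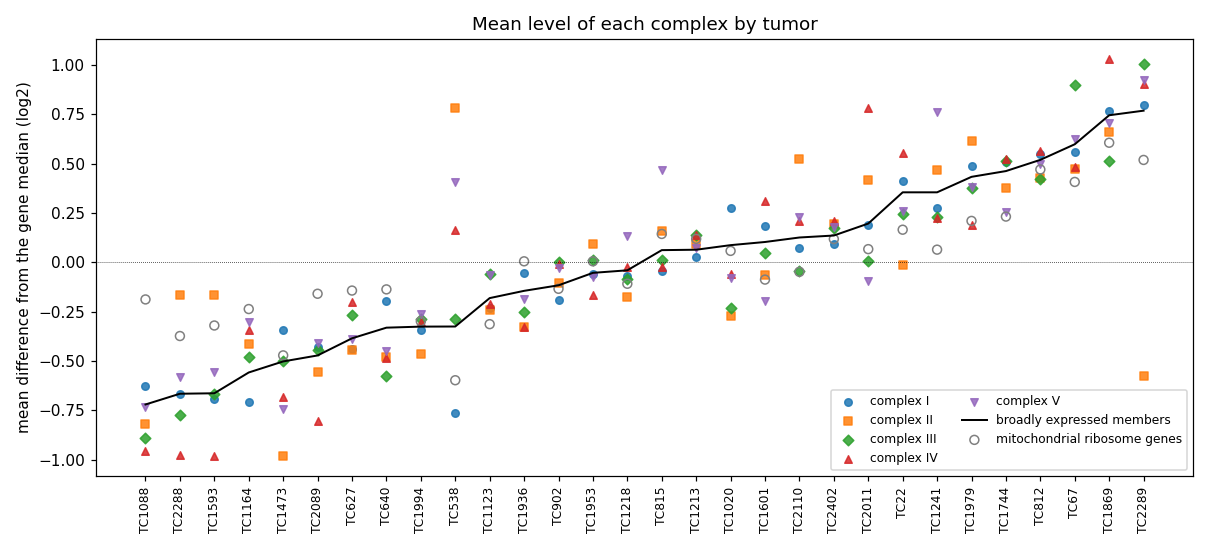
Mean difference from the gene median (log2, vertical axis) of each complex in the 30 tumors, ordered by the mean of the 49 broadly expressed members (line). Colored symbols are complexes I to V and open circles the mean of 62 mitochondrial ribosome genes; complex II lies apart from the other complexes in TC538 (0.78) and TC2289 (-0.58).

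Within the 25 tumors of the larger branch the broadly expressed members moved together. Spearman's rho between pairs of them had a median of 0.46 (jackknife SE over tumors 0.0590), and 1049 of 1176 pairs (89.2%) were positive. Pairs of other genes were not computed, so the pair values alone do not set the members apart from other genes. The median was 0.49 for the 407 pairs in the same complex and 0.44 for the 769 pairs in different complexes. The highest rho joined NDUFS7 of complex I and ATP5F1D of complex V (0.98), and UQCRC1 of complex III followed NDUFS7 at 0.95. The lowest joined NDUFA13 and NDUFS4, which are both in complex I (-0.62). NDUFA13 had low counts, 7 to 195 per tumor. These correlations share libraries, depth and scaling, and are given as descriptions with no p.

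Set against the mean of the other broadly expressed members, a member had a median rho of 0.72, and 36 of 49 were above 0.5. The median over all 18711 genes was 0.03, and 12.5% of them were above 0.5. By complex the median was 0.74 for complex I, 0.67 for complex II, 0.67 for complex III, 0.81 for complex IV and 0.61 for complex V. NDUFB11 (0.90), UQCRFS1 (0.90), NDUFB6 (0.89) and NDUFA8 (0.89) followed the others most closely. NDUFS4 (-0.24) and NDUFS1 (-0.16) were negative, and ATP5F1C (0.09) and NDUFV2 (0.14) were near 0. Of these, NDUFS1, NDUFS4 and NDUFV2 belong to the arm of complex I that oxidizes NADH, whereas NDUFV1, the subunit of that arm that binds NADH, had a rho of 0.86. Whether the members of that arm differ as a set from the rest of complex I was not tested. Low values were also found in other complexes, as for COX7A2L of complex IV (0.26) and UQCRC2 of complex III (0.28). Among genes outside the list, those most like the members were RAB5IF (0.91), STUB1 (0.89) and HSD17B10 (0.88), and STK38 (-0.88) was the most opposed.

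**Figure D3:**
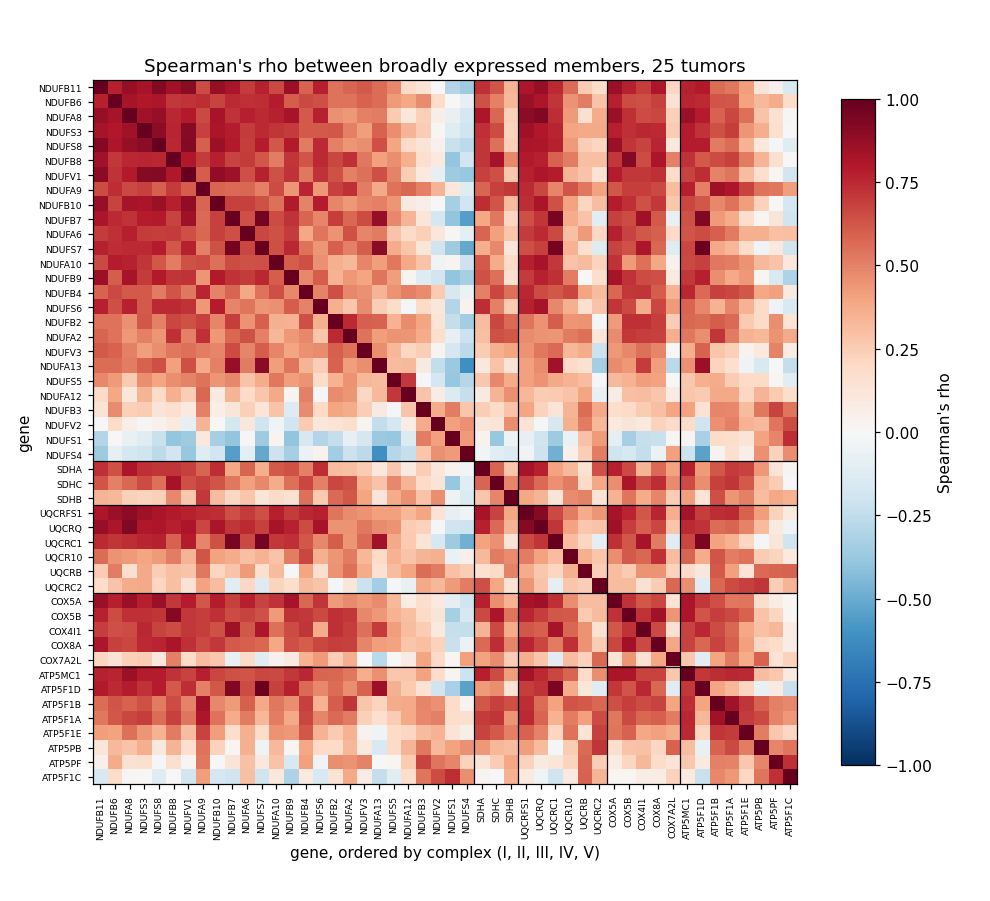
Spearman's rho between pairs of 48 of the 49 broadly expressed members over the 25 tumors of the larger branch, with genes grouped by complex on both axes (lines) and color from -1 (blue) to 1 (red). Most pairs are positive (1049 of 1176 over all 49), and the blue bands are those of NDUFS4 and NDUFS1.

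The neighboring pathways were described the same way. The mean of the members had a rho of 0.90 (r = 0.87) with the mean of the 62 mitochondrial ribosome genes. It had a rho of 0.83 (r = 0.84) with 45 assembly factors and of 0.74 (r = 0.72) with 11 genes of the tricarboxylic acid cycle. It had a rho of 0.26 (r = 0.06) with 57 cytosolic ribosome genes and of -0.13 (r = -0.09) with the 13 protein genes of mitochondrial DNA. CYC1, the cytochrome of complex III, had a rho of 0.80 and CYCS, cytochrome c itself, of 0.30. Among regulators of mitochondrial biogenesis, ESRRA, a nuclear receptor, had a rho of 0.81 and POLRMT, the mitochondrial RNA polymerase, of 0.61, while TFAM, which packages and transcribes mitochondrial DNA, was at -0.60, GABPA at -0.66 and GABPB1 at -0.63. PPARGC1A, the coactivator best known for driving biogenesis, was at -0.14. The mean of the members also had a rho of 0.57 (r = 0.54) with the total count of the library and of 0.55 without TC538. The mitochondrial ribosome mean had a rho of 0.60 with the total count, and the part of depth in the shared movement was not tested.

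To ask which genes followed which level, a slope was fitted for every gene with edgeR's quasi-likelihood test over the 25 tumors, as the log2 change per SD of the level, and a gene was called at a Benjamini-Hochberg adjusted p below 0.05. Each fit tested 53 members among 18044 to 18105 genes. The level of the mitochondrial ribosome gave by far the most calls among the members. It was added after seeing the data, and its mean followed the mean of the members closely, as given above. The calls with this level therefore restate that relation and add no separate support. With this level 33 of 53 members rose (62.3%) and 0 fell, beside 18.2% of all genes rising and 22.8% falling. The median slope was 0.34 over the members and -0.01 over all genes. In complex I 22 of 27 members rose, in complex II 1 of 3 (SDHA, 0.26 ± 0.09 SE, adjusted p = 0.0227), in complex III 3 of 6, in complex IV 5 of 8 and in complex V 2 of 8. The 3 largest slopes were those of NDUFS8 (0.83 ± 0.13 SE), NDUFS7 (0.80 ± 0.13) and ATP5F1D (0.78 ± 0.12). These 3 genes and the level itself (-0.60) were all lowest in TC538. Without that tumor 37 members rose, and the median slope of the members was 0.39. The members with negative slopes, among them COX7A2L (-0.15), NDUFS4 (-0.11) and NDUFS1 (-0.06), did not pass the test.

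Other mitochondrial genes were divided in the same fit, where 18.2% of all genes rose and 22.8% fell. Of the 44 assembly factors that passed the count filter 17 rose (38.6%) and 6 fell (13.6%). Of the 11 tricarboxylic acid cycle genes 5 rose, CS and IDH3B among them, and 2 fell (DLD and SUCLA2). CYC1 rose by 0.72 (adjusted p = 0.000126), and CYCS had a slope of -0.12 that did not pass. Of the 15 biogenesis regulators 3 rose and 3 fell (20.0% each), shares close to those over all genes. Those that rose were ESRRA (0.66, adjusted p = 0.00136), POLRMT and POLG, and those that fell were TFAM (-0.47, adjusted p = 0.00267), GABPA (-0.46, adjusted p = 0.00859) and GABPB1. Of the 13 protein genes of mitochondrial DNA 0 rose and 6 fell. TC538 had both the lowest mitochondrial ribosome level (-0.60) and the highest level of these 13 genes (2.77). The part of this tumor in the 6 calls was not tested. Of the 57 cytosolic ribosome genes 5 rose and 2 fell.

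With the level of the mitochondrially encoded mRNAs 1 member rose, beside 8.18% of all genes rising and 1.38% falling. This was NDUFV2, with a slope of 0.26 ± 0.06 SE and an adjusted p of 0.00896. The level itself was highest in TC538, 2.77 above the median, and without this library 0 members and 0 genes were called at an adjusted p, with 3 members at an unadjusted p below 0.05, and the slope of NDUFV2 was 0.15. The median slope over the 53 members was -0.02, and 26 of the 53 slopes were positive.

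With PPARGC1A, 0 members were called by edgeR or DESeq2 and 4 had an unadjusted p below 0.05 in edgeR, beside 0.823% of all genes rising and 0.856% falling. PPARGC1A itself spanned levels from 5.90 to 12.07 in these 25 tumors. The median SE of a member's slope was 0.126, so small slopes were not detectable with this number of tumors. With the thyroid hormone synthesis genes 1 member rose, beside 1.8% of all genes rising and 3.45% falling. This was COX8A, the broadly expressed isoform of a small complex IV subunit, with a slope of 0.57 ± 0.15 SE and an adjusted p of 0.0262. Its normalized counts were 45.5 in TC1473, 89.7 in TC1088 and 121 in TC2288, 320 at the median, and 1072 and 1346 in TC2011 and TC1869. Without TC1088 the slope of COX8A was 0.40 with an adjusted p of 0.156, and 0 members were called. The median slope of the members was 0.14 with TC1088 and 0.00 without it.

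With proliferation, read from 13 cell cycle genes, 0 members were called by edgeR or DESeq2 and 3 had an unadjusted p below 0.05 in edgeR. Only 0.0111% of all genes rose and 0% fell. With the cytosolic ribosome genes 0 members were called and 1 had an unadjusted p below 0.05, beside 2.49% of all genes rising and 0.898% falling, and DESeq2 called 1. This level was highest in TC1088 (1.82), and without that tumor 2 members rose (SDHA and NDUFA8), 16 had an unadjusted p below 0.05 and the median slope of the members was 0.19 in place of 0.05.

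**Figure D4:**
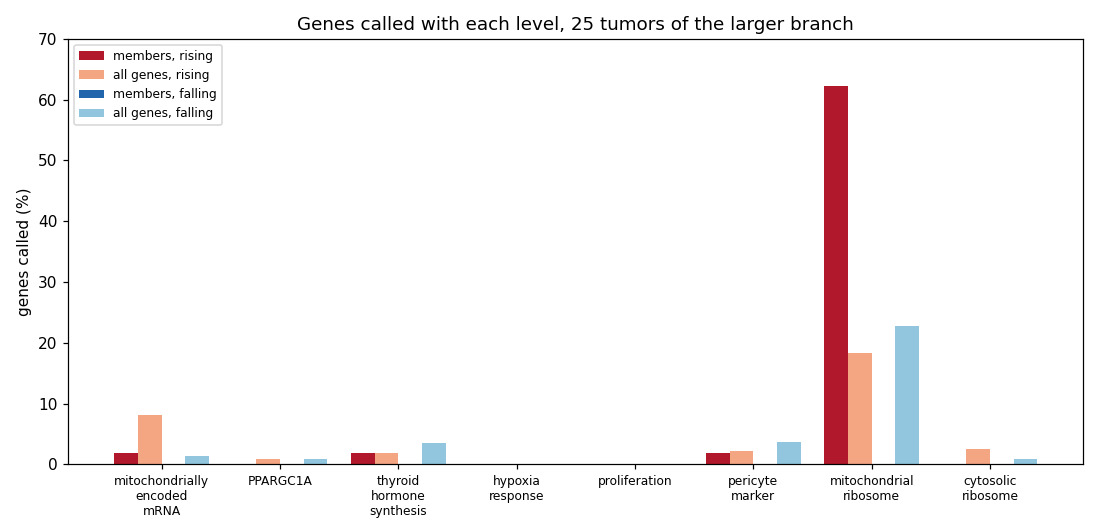
Share of genes called (%, vertical axis) with each of 8 levels (horizontal axis) over the 25 tumors of the larger branch, for the 53 members (dark bars) and all genes tested (light bars), red for rising and blue for falling. With the mitochondrial ribosome level 62.3% of members rose, and with each of the other 7 levels at most 1 of 53 did. The mitochondrial and cytosolic ribosome levels were added after seeing the data.

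The isoforms of restricted tissues had the largest SDs of complex IV, 1.03 for COX4I2 and COX6A2 and 1.20 for COX7A1, and NDUFA4L2 reached 1.68. COX4I2 (ENSCAFG00000007049) replaces COX4I1 in complex IV in lung and in some vessel wall cells, where pericytes wrap capillaries. Its normalized count was 28.7 in TC538, 38.1 in TC2288 and 44.8 in TC1088, 119 at the median, and 397, 435 and 481 in TC1979, TC22 and TC1601. The broad partner COX4I1 ran from 684 in TC2288 through 1727 to 3857 in TC812. With the level of 8 pericyte markers COX4I2 was the 1 member that rose, beside 2.26% of all genes rising and 3.7% falling, with a slope of 0.89 ± 0.11 SE and an adjusted p of 1.6e-05. Its level correlated with that of the markers at r = 0.884 and rho = 0.792 over 25 tumors (permutation p = 1e-05 for each, the smallest that 100000 permutations can give, adjusted over 6 relations 6e-05). Without TC1088 and TC640, the tumors farthest from the median, r was 0.878. COX4I2 also had a rho of 0.67 with the mean of the broadly expressed members and was among the members that rose with the mitochondrial ribosome level (0.63 ± 0.20 SE, adjusted p = 0.0154). The 8 markers, PDGFRB, RGS5 and NOTCH3 among them, were all counted, with a summed normalized count from 2015 to 40164, and 4 of 4 endothelium markers also rose with their level, with slopes from 0.70 to 0.93. How much of the COX4I2 signal came from pericytes or other vessel cells was not tested.

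NDUFA4L2 (ENSCAFG00000000200) is known as a target of the hypoxia-inducible factor HIF1 and lowers the activity of the chain when oxygen is scarce. It had the largest spread of all members, with normalized counts of 8.97 in TC1088, 28.0 in TC1869 and 28.2 in TC1473, 152 at the median, and 521, 744 and 2356 in TC1593, TC1744 and TC1601. TC1601 stood alone at the top. With the level of 11 hypoxia response genes, such as CA9 and VEGFA, 0 members were called, beside 0.00553% of all genes rising and 0% falling. NDUFA4L2 had the largest slope, 0.97 ± 0.23 SE, with an unadjusted p of 0.00029 and an adjusted p of 0.247, and 4 members had an unadjusted p below 0.05. DESeq2 called it (slope 0.98, adjusted p = 0.0057). As a single relation over 25 tumors, its level followed the hypoxia genes at r = 0.664 (permutation p = 0.00038) and rho = 0.672 (permutation p = 0.00046, adjusted over 6 relations 0.00138), and r was 0.613 without TC640 and TC627. It therefore passed the test among 6 relations and not the edgeR test across all genes.

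The crossed relations of these genes did not pass after adjustment. COX4I2 and the hypoxia genes had r = -0.399 (permutation p = 0.0496, adjusted 0.0993) and rho = -0.336 (permutation p = 0.101). NDUFA4L2 and the pericyte markers had rho = -0.253 (permutation p = 0.219) and r = -0.0848 (permutation p = 0.687).

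**Figure D5:**
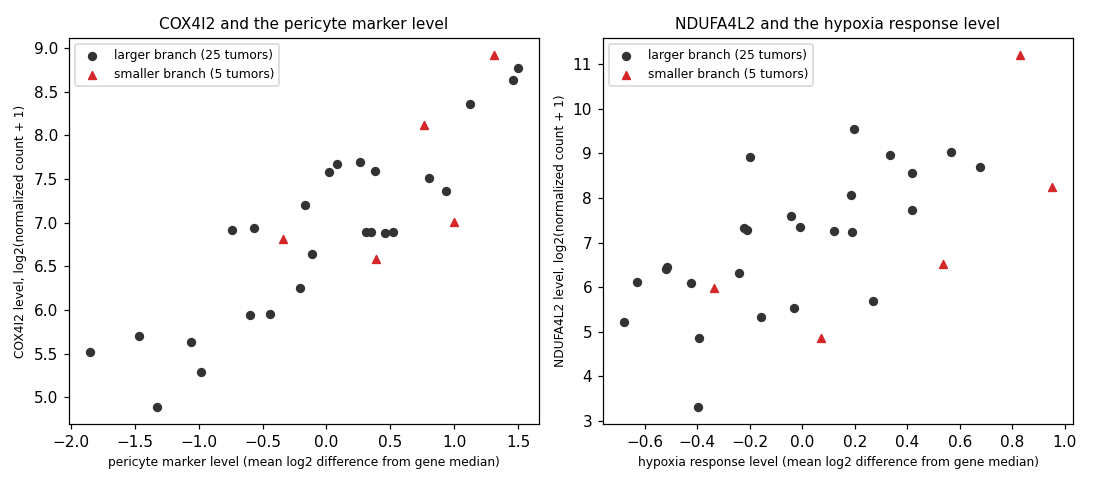
Left, level of COX4I2 (vertical axis, log2) against the mean level of 8 pericyte markers; right, level of NDUFA4L2 against the mean level of 11 hypoxia response genes (horizontal axes, mean log2 difference from the gene median). Circles are the 25 tumors of the larger branch (rho = 0.792 and 0.672) and triangles the 5 of the smaller branch, with TC1601 highest for both genes.

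COX6A2 and COX7A1 are the isoforms of heart and skeletal muscle. COX6A2 was near the floor, with 0 counts in TC2289, a median of 6 and a highest count of 36, and 9 tumors reached 10 counts. COX7A1 was counted in every tumor, from 44.8 normalized counts in TC812 through 298 to 1106 in TC1241. The muscle markers, 13 of which passed the filter, were highest in TC2089, where their mean lay 3.74 above the medians, and COX7A1 was among its lowest there (73.5). Neither gene followed the muscle markers over 25 tumors, with rho = 0.318 for COX6A2 (permutation p = 0.122, r = 0.123, permutation p = 0.568) and rho = 0.0985 for COX7A1 (permutation p = 0.64, r = -0.196, permutation p = 0.356). Without TC2089 and TC2402 r was 0.187 for COX6A2 and 0.214 for COX7A1. COX7A2L, a relative of COX7A1 that takes part in joining complexes III and IV, ran from 674 in TC1869 through 1131 to 3445 in TC538 and 3587 in TC2289, and had the smallest SD of complex IV (0.55).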

How the data were processed

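RNA was sequenced from 30 canine thyroid tumors. Per the labels, total RNA was extracted with TRIzol and made into libraries with a kit that removes ribosomal RNA. The authors aligned reads with STAR 2.6.1a and counted them per gene of Ensembl 99. The submitters' processing notes name the build CanFam3.1. The authors deposited raw read counts per gene and tumor in 1 table, not normalized. The strand setting of the counting is not given in the sources used here, so overlapping antisense genes cannot be told apart.

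Size factors were medians of ratios over 15611 genes counted in all tumors, and levels were log2(count / size factor + 1). Depth ranged from 12288945 to 45148677 counts. Slopes were tested with edgeR 4.0.16 (TMM, quasi-likelihood) in R 4.3.3 after dropping genes that did not reach 10 counts in 5 or more tumors, with the genes of each level left out of the genes tested and Benjamini-Hochberg adjustment. DESeq2 1.42.0 was an alternative, and an adjusted p it gave as NA stayed out of its calls. Single relations were tested with two-sided permutation tests (100000 permutations). The edgeR step was tested on simulated data. Figures and correlations used Python 3.11.15, scipy 1.17.1 and matplotlib 3.10.9.

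Branches came from Ward clustering on the genes whose level averaged over 2 and had a variance over 6. The members and lists were chosen with earlier results of these data known, and the mitochondrial and cytosolic ribosome levels were added after seeing the data. Genes were named by rule, as the isoforms of restricted tissues with their partners, the SDH subunits, the members of each complex with the 3 smallest and 3 largest SDs or the 2 highest and 2 lowest correlations with their complex, the 3 largest slopes each way among called members, and members failing the filter. Members named for an extreme value of the mean, of pairs or of TC538 were chosen after their values were seen. p-values measure the spread between tumors of 1 library each. Values of 1 complex I member are included in the counts and not reported singly here. No sequences or coordinates were used here, and 0 columns belonged to no tumor.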

Additional observations from a re-analysis of the deposited data

How the results depend on the processing

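Every alternative changed 1 choice, except that DESeq2 replaced the test and its normalization together. Of 206 recomputed values 181 were labelled unchanged. For a slope this means the same direction and call, and for a correlation the same call. For a count of members it means a similar count, often 0 both times, and for a median a move below its jackknife SE. The members rising with the mitochondrial ribosome level numbered 28 to 37 across 7 alternatives, and 28 to 33 of these were also among the 33, with 1 falling (ATP5MK) without a count filter. Members rising with the mitochondrially encoded mRNAs numbered 2 without a count filter (NDUFV2 and ATP5MK), 2 over all 30 tumors (NDUFV2 and ATP5PF), 0 without TC538 and 0 without TC538 and TC1869, where the slope of NDUFV2 was 0.08. With PPARGC1A 1 rose (SDHA) and 2 fell (NDUFA6 and NDUFV3) over all 30 tumors. With thyroid hormone synthesis 3 rose by DESeq2 (COX8A, NDUFB2 and NDUFA4L2), 2 rose (COX8A and SDHB) and 3 fell (NDUFA6, NDUFB3 and NDUFV3) over all 30 tumors, and 0 rose without TC1088. With hypoxia 1 rose by DESeq2 and 1 over all 30 tumors, NDUFA4L2 each time. With pericyte markers 0 rose where at least 100 counts in at least 20 tumors were asked, a filter that leaves COX4I2 untested, and 1 fell (COX7B2) without a filter. With the cytosolic ribosome 1 rose by DESeq2 and 2 without TC1088. Without TC1088, rho was -0.413 for COX4I2 with hypoxia and -0.417 for NDUFA4L2 with pericyte markers. SDHA, over all 30 tumors, had a slope of 0.23 on the mitochondrial ribosome and did not pass. The cause of these shifts was not tested beyond the smaller set of genes or tumors named.

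Counts over all genes moved more. By DESeq2 564 genes rose and 350 fell with PPARGC1A, 1025 rose with thyroid hormone synthesis, 56 rose and 74 fell with hypoxia, and 75 rose and 88 fell with proliferation. Over all 30 tumors 1524 genes rose and 2572 fell with thyroid hormone synthesis, against 87 and 82 without TC1088, 644 rose and 1524 fell with PPARGC1A, and 931 rose with proliferation. The smaller libraries limit low genes, above all COX6A2, COX7B2 and ATP5MK. No paired analysis was possible because the labels put all samples in 1 group.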

Other observations

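The 5 tumors of the smaller branch were left out of the relations above, and their values are given here without a test. The mean of the 49 broadly expressed members was -0.50 in TC1473, -0.14 in TC1936, 0.09 in TC1020, 0.10 in TC1601 and 0.77 in TC2289, so these 5 tumors spread over most of the range of the 30. NDUFV3, an accessory subunit of complex I, reached its highest level of all tumors in TC1020 (10.23, against a median of 8.44). TC1601 had the highest levels of COX4I2 (8.91), NDUFA4L2 (11.20) and COX6A2 (5.00). TC2289 had the highest values of NDUFS4 (10.54) and COX7A2L (11.81), whose rho with the other members in the larger branch was -0.24 and 0.26, and it also had the highest mean of the broadly expressed members.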
